A study of Mus musculus with 8 samples.

Results

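The genes described here are 10 genes of the contractile apparatus of smooth muscle, *Acta2*, *Tagln*, *Cnn1*, *Myh11*, *Cald1*, *Myl9*, *Actg2*, *Lmod1*, *Des* and *Smtn*, chosen by gene symbol out of the 55487 genes in the deposited files. The cells were J1 mouse ESCs of strain 129S4/SvJae, differentiated toward cardiomyocytes in medium with ascorbic acid. Cells were aggregated into embryoid bodies in hanging drops and moved to coated dishes 2 days later. RNA was taken from undifferentiated ESC at day 0, mesoderm (MES) at day 4, cardiac progenitors (CP) at day 6 and cardiomyocytes (CM) at day 10, with 2 biological replicates per stage and 8 libraries in all. The stage names are those of the study, contracting patches were collected and no sort for a cell type is described, and all libraries came from a single cell line. Levels are given as TPM, a level corrected for gene length and scaled to the same sum in every library. Fold changes and adjusted p-values are those of edgeR's quasi-likelihood test, run on raw counts. A call, higher or lower, needed a p under 0.05 after adjustment over the 20071 genes tested and a change of more than 2-fold either way. All 10 genes passed the filter on low counts, and none had a count of 0 in any library.

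Smooth muscle contracts when myosin slides along actin filaments that are anchored at dense bodies in the cytoplasm. Contraction starts when calcium activates myosin light chain kinase, and calponin, caldesmon and transgelin bind the actin filament and modulate or stabilise it. Many of these genes are controlled by serum response factor (SRF), which binds a DNA element called the CArG box, together with the coactivator myocardin or its relatives. Most of the 10 genes are not restricted to smooth muscle. *Acta2* and *Tagln* are also used by the embryonic heart and by myofibroblasts, *Des* by all muscle types, and *Myh11* is the most restricted marker of the group.

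The summed level of the 10 genes went from 118 and 124 TPM in the ESC replicates to 962 and 993 TPM in MES and 3856 and 4340 TPM in CP. In CM their sum was 2650 and 2880 TPM, below both CP libraries and above both MES libraries. As a share of the whole library, the mean went from 0.0121% of all TPM in ESC to 0.0978% in MES and 0.410% in CP, with 0.276% in CM. *Acta2* made up 26.0% and 29.7% of the sum in ESC and 31.7% and 43.3% in MES, where *Tagln* made up 40.7% and 31.0%. The *Acta2* share was 74.1% and 75.9% in CP, then 52.8% and 51.2% in CM. These are bulk libraries, so more cells of a type and more RNA per cell cannot be told apart.

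**Figure D1:**
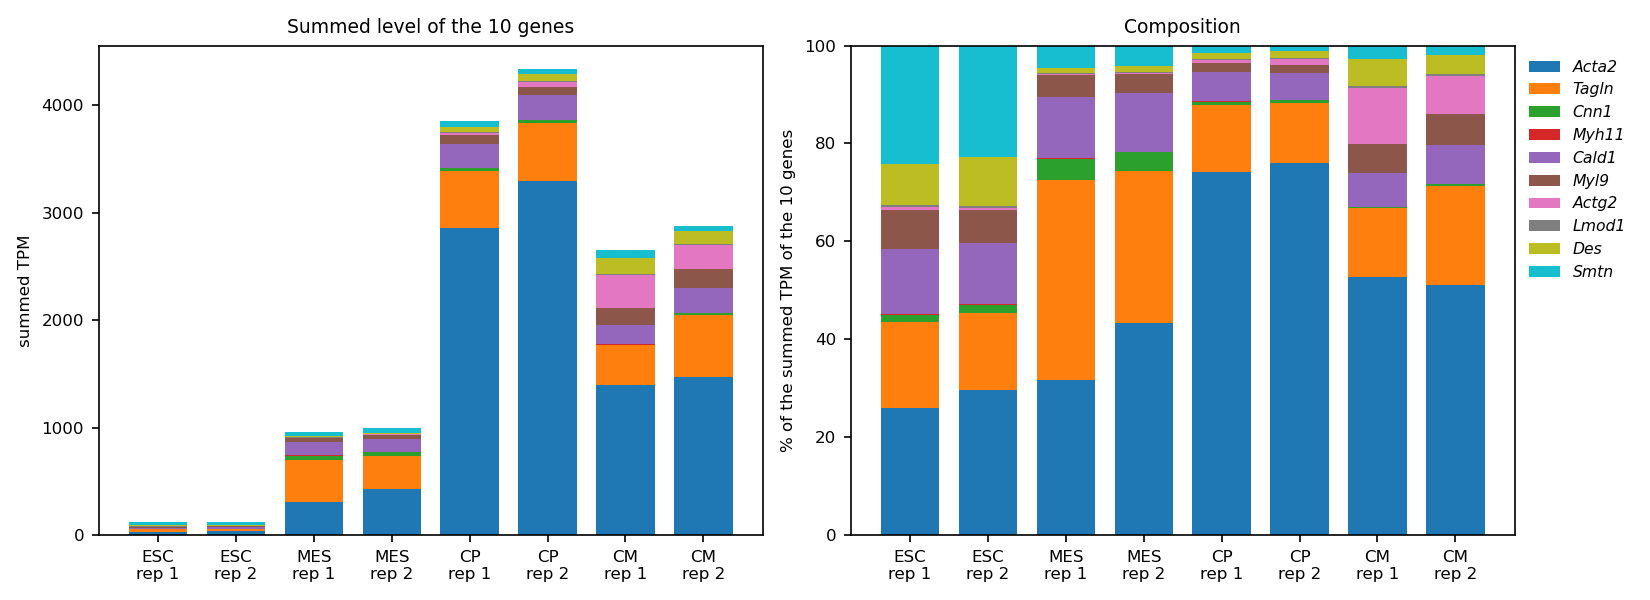
Summed TPM of the 10 genes in each library (left) and the percentage each gene contributed to that sum (right), with 1 bar per library. *Acta2* had its largest shares in CP, at 74.1% and 75.9%, and *Actg2* appeared as a visible part of the sum in CM, at 11.4% and 7.75%.

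The members did not follow a common course. Mean levels were highest in CM for 6 genes (*Myh11*, *Myl9*, *Actg2*, *Lmod1*, *Des* and *Smtn*), in CP for 3 genes (*Acta2*, *Tagln* and *Cald1*) and in MES for *Cnn1* alone. The peak of *Acta2* at day 6 was known when the genes were chosen, and *Acta2* is among the genes counted as called at the steps to and from CP. From ESC to MES, 6 of the 10 genes were called higher and none lower, while 19.4% of all genes tested were called higher and 16.0% lower. From MES to CP, 4 genes were called higher and none lower, against 10.8% and 4.65% of all genes. From CP to CM, 4 genes were called higher, against 8.17% of all genes, and 2 were called lower, against 2.65%. The median log2 fold change of the 10 genes was 1.95, 0.77 and 0.33 at these 3 steps, and that of all genes lay at 0.00, 0.00 and -0.00. Against ESC, 9 of the 10 genes were called higher in CP and 9 in CM, compared with 26.1% and 29.8% of all genes, and the gene not called was *Smtn* in both comparisons. Between MES and CM, 6 genes were called higher, against 19.1% of all genes, and 1 was called lower, against 10.1%.

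**Figure D2:**
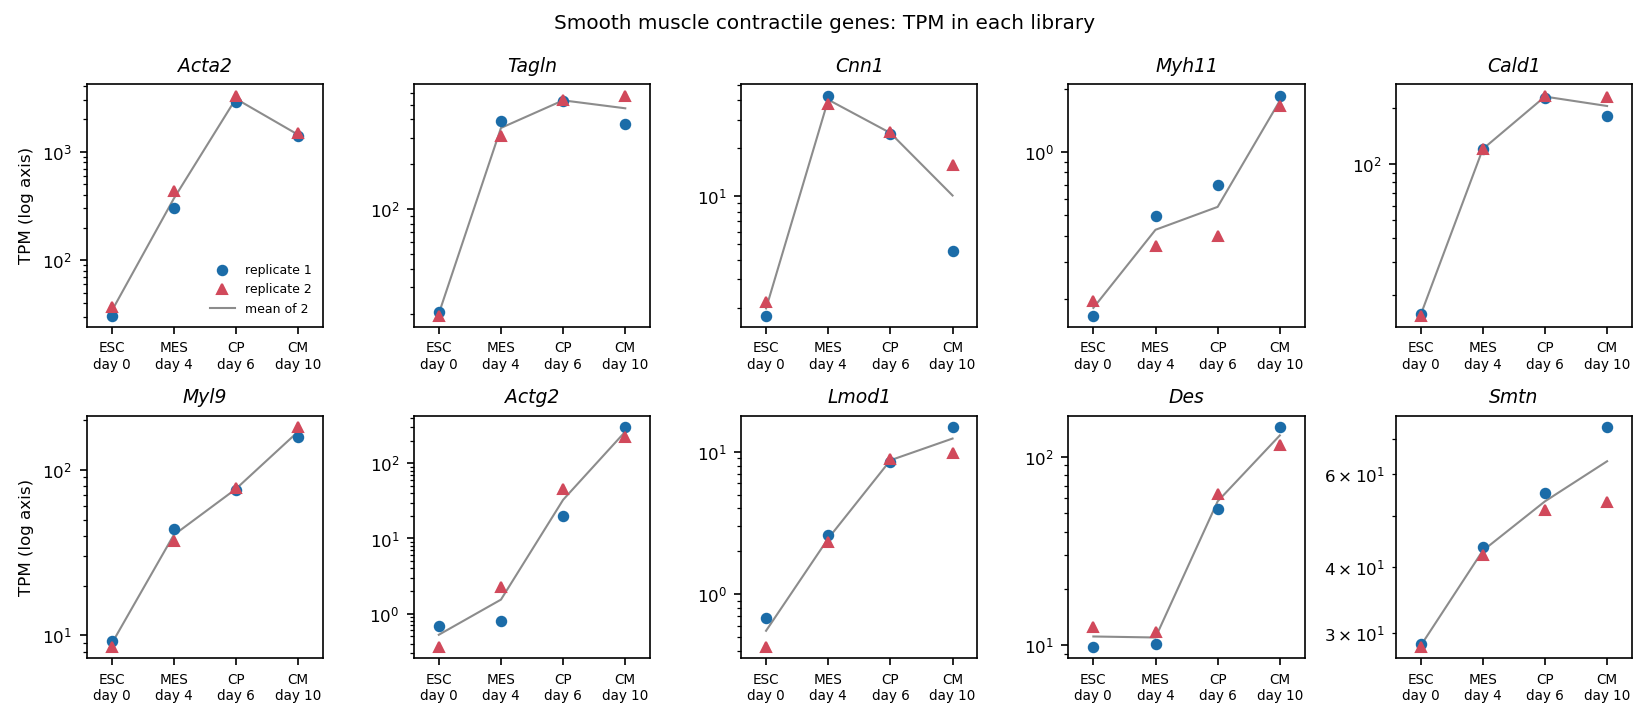
TPM of each gene in each library by stage on a log axis, with circles for replicate 1, triangles for replicate 2 and a line through the mean of the 2 replicates. *Acta2* peaked in CP at 2857 and 3295 TPM, *Cnn1* peaked in MES at 42.8 and 37.8 TPM, and *Actg2* rose from under 1 TPM in ESC to 303 and 223 TPM in CM.

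*Acta2*, which encodes smooth muscle alpha-actin (ENSMUSG00000035783, chromosome 19 from 34241090 to 34255590 on the minus strand of GRCm38), had the highest mean level of the 10 genes at every stage. It was at 30.7 and 36.7 TPM in ESC, 305 and 431 TPM in MES, 2857 and 3295 TPM in CP, and 1398 and 1474 TPM in CM. No 2 stages overlapped, and the order CP, CM, MES, ESC held in every library. *Acta2* rose 9.40-fold from ESC to MES (3.23 ± 0.16 SE on the log2 scale, adjusted p = 2.04e-07) and a further 7.52-fold from MES to CP (2.91 ± 0.15 SE on the log2 scale, adjusted p = 4.20e-06). It then fell 2.25-fold from CP to CM (-1.17 ± 0.14 SE on the log2 scale, adjusted p = 0.000535). Since the peak at day 6 was known when the genes were chosen, the values for the steps to and from CP describe that peak. They are no independent test of it. Ranked by mean TPM among the protein-coding genes above 0, *Acta2* stood at rank 4870 of 17084 in ESC, rank 323 of 16654 in MES, rank 8 of 17043 in CP and rank 34 of 17593 in CM.

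*Actg2*, which encodes the gamma-actin of visceral smooth muscle (ENSMUSG00000059430, chromosome 6 from 83512905 to 83536265 on the minus strand), rose later and by more. It was at 0.693 and 0.358 TPM in ESC, 0.807 and 2.27 TPM in MES, 20.2 and 45.1 TPM in CP, and 303 and 223 TPM in CM. The low levels rest on few reads, 9 counts over both ESC libraries and 23 over both MES libraries, and the difference between ESC and MES was not called (adjusted p = 0.289). It rose 18.7-fold from MES to CP (4.23 ± 0.52 SE on the log2 scale, adjusted p = 0.000304) and 7.79-fold from CP to CM (2.96 ± 0.34 SE on the log2 scale, adjusted p = 0.000453). Between ESC and CM the difference was 8.50 ± 0.56 (SE) on the log2 scale, the largest of the 10 genes in any of the 6 comparisons. The 2 smooth muscle actins thus went opposite ways after day 6, with *Acta2* lower and *Actg2* higher in CM than in CP. The ratio of *Acta2* to *Actg2* in TPM was 142 and 73.0 in the CP replicates and 4.62 and 6.60 in the CM replicates.

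The mouse has 6 actin genes, the 2 smooth muscle actins, cardiac *Actc1*, skeletal *Acta1* and the cytoplasmic *Actb* and *Actg1*. *Actb* made up 80.4% and 81.1% of the summed actin TPM in ESC and 55.5% and 53.0% in CP. *Acta2* went from 0.484% and 0.517% of the actin sum in ESC to 2.56% and 3.72% in MES. It reached 19.1% and 21.3% in CP, with 11.6% and 13.0% in CM. *Acta2* was thus the most abundant of the muscle actins in all 8 libraries, those labelled CM included. *Actc1*, the actin of the adult heart, was at 498 and 722 TPM in CP and 195 and 514 TPM in CM, below *Acta2* in each of these libraries. *Actc1* was called 15.8-fold higher in CP than in MES (adjusted p = 8.06e-05) and was not called from CP to CM, where its replicates lay far apart (-0.89 on the log2 scale, adjusted p = 0.0777). *Acta1* was at 48.2 and 44.6 TPM in MES and 7.11 and 17.5 TPM in CM, and fell 2.45-fold from CP to CM (adjusted p = 0.0197). Muscle actins have near-identical coding sequences, but no stretch of 75 bases in the transcripts of *Acta2*, *Actg2* or *Actc1* occurred in those of another gene. For *Acta1* and *Actb* such stretches made up 0.395% and 1.58% of the total, and for *Actg1* they made up 33.4%, mostly shared with pseudogenes, so its level is less certain.

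**Figure D3:**
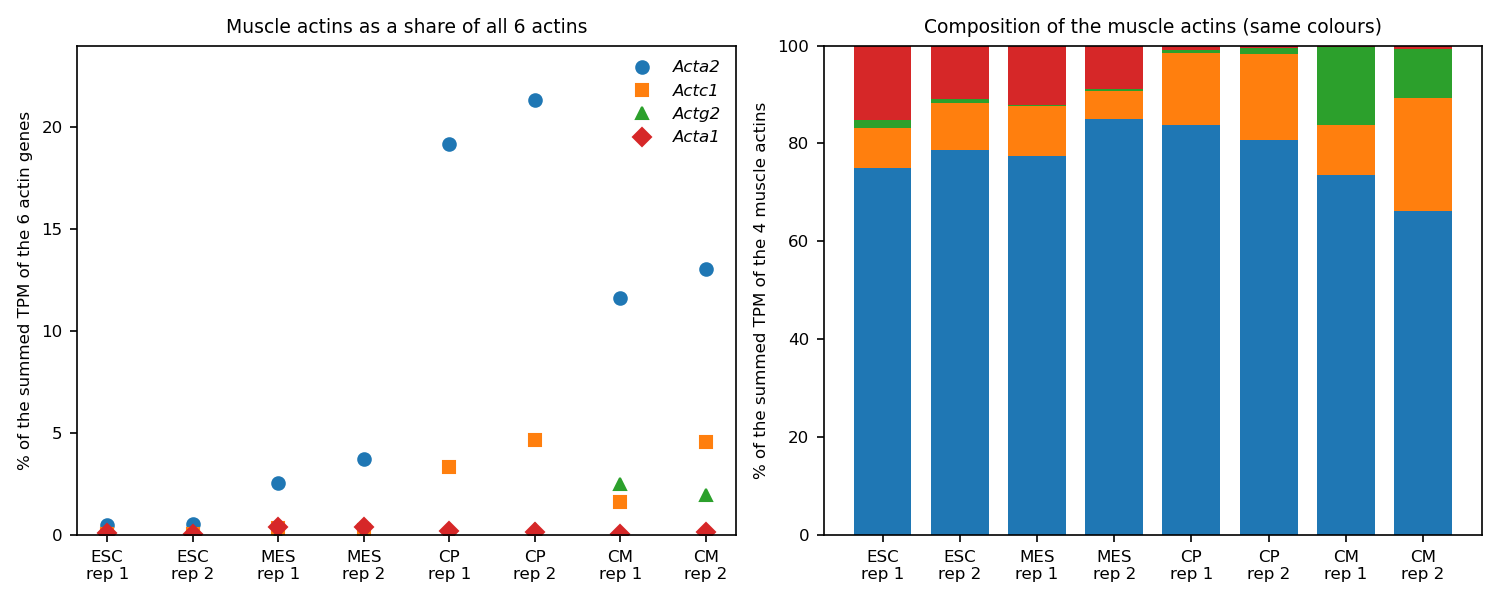
Muscle actins as a percentage of the summed TPM of the 6 actin genes (left, 1 point per gene and library) and the composition of the 4 muscle actins (right, same colours). *Acta2* was the highest muscle actin in every library, reaching 19.1% and 21.3% of all actin TPM in CP, and *Actg2* was 2.52% and 1.97% of all actin TPM in CM.

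Around the start sites of transcription, 7 of the 10 genes had an entry in the RefSeq promoter table used here (build GRCm38.p6, 250 bases before to 50 bases after the start), with 2 entries for *Cald1*. *Tagln*, *Myh11* and *Actg2* had none. The *Smtn* entry and 1 of the 2 *Cald1* entries lie inside the gene as GENCODE M21 places it. A lack of a match therefore holds for the entries and not for every start of a gene. A CArG box is CC, then 6 bases of A or T, then GG. Among these entries it was present in *Myl9* only. In the whole table, 1.63% of the 32851 promoters and 1.81% of the 27025 genes held one. A search added after that result was seen allowed 1 C or G among the 6 central bases and matched *Acta2* at 2 places and *Myl9* at 1. This looser form was present in 8.50% of promoters and 9.7% of genes. Either form was present in 9.98% of promoters and 11.3% of genes. A match in 2 of 7 genes is thus a description, and no test was made. Both strands were searched, each form is its own reverse complement, and no position was shared between the 2 forms. The following 4 windows of 30 bases are shown because these members carried the only matches, with the match in capitals, 5′ to 3′ on the strand of the gene.
*Acta2*, chr19:34255438-34255467, minus strand, 84 to 75 bases before the RefSeq start: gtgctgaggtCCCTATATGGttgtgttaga
*Acta2*, chr19:34255388-34255417, minus strand, 34 to 25 bases before the RefSeq start: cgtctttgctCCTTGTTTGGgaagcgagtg
*Myl9*, chr2:156775293-156775322, plus strand, 161 to 152 bases before the RefSeq start: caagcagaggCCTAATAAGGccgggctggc
*Myl9*, chr2:156775355-156775384, plus strand, 99 to 90 bases before the RefSeq start: cattcttctgCCTTGTAAGGccgggcggcc
The first 2 windows lie upstream of the start in RefSeq but inside an exon of *Acta2* in GENCODE M21, which places the start of the gene further upstream. The 2 *Myl9* windows lie before the RefSeq start and in no GENCODE exon of the gene. Both genes rose from ESC to MES, but they differed after day 6, when *Acta2* fell and *Myl9* rose. A TEAD element (CATTCC on either strand) was found in *Acta2*, *Cald1*, *Lmod1* and *Smtn*, and in 14.7% of promoters and 16.6% of genes in the table. A TATA box (TATAAA) was found in 1 *Cald1* entry, and in 13.6% of promoters and 15.7% of genes. These matches are descriptions too, and no test was made.

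Among the proteins that bind the actin filament, *Tagln*, which encodes transgelin or SM22 (ENSMUSG00000032085, chromosome 9 from 45929619 to 45936058 on the minus strand), reached most of its level by day 4. It was at 20.6 and 19.4 TPM in ESC, 392 and 308 TPM in MES, 533 and 539 TPM in CP, and 371 and 577 TPM in CM. The rise from ESC to MES was 15.2-fold (3.92 ± 0.19 SE on the log2 scale, adjusted p = 1.97e-07). Neither later step was called, with log2 fold changes of 0.45 from MES to CP (adjusted p = 0.0519) and -0.27 from CP to CM (adjusted p = 0.266), and the CM libraries spanned those of CP. In MES replicate 1 *Tagln* stood above *Acta2*, and in every other library *Acta2* was the higher. Its locus overlaps *Pcsk7* and *Gm48529* on the opposite strand, which had at most 706 and 58 counts per library, and the counting used the strand.

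*Cnn1*, which encodes calponin 1, an inhibitor of myosin's ATPase activity on actin (ENSMUSG00000001349, chromosome 9 from 22099216 to 22109630), was the only member with its highest level in MES. It was at 1.78 and 2.17 TPM in ESC, 42.8 and 37.8 TPM in MES, 24.4 and 25.4 TPM in CP, and 4.51 and 15.7 TPM in CM. No 2 stages overlapped. *Cnn1* rose 17.6-fold from ESC to MES (4.14 ± 0.45 SE on the log2 scale, adjusted p = 3.86e-05), the largest estimate of the 10 genes at that step and within 1 standard error of that of *Tagln*. From MES to CP the log2 fold change was -0.85 and was not called (adjusted p = 0.0913), and from MES to CM it fell 4.83-fold (-2.27 on the log2 scale, adjusted p = 0.000786). The fall from CP to CM was 2.67-fold (-1.42 on the log2 scale, adjusted p = 0.0234). This call was lost when only CP and CM entered the fit (adjusted p = 0.110), with either test on log2 TPM, and when CP replicate 1, CP replicate 2 or CM replicate 1 was left out, the last giving a log2 fold change of -0.84. The CM replicates differed 3.48-fold, the widest replicate gap of any member at any stage. Its call from ESC to CM was also lost without CM replicate 2, at a log2 fold change of 0.84.

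*Cald1*, which encodes caldesmon, another actin-binding regulator of myosin (ENSMUSG00000029761, chromosome 6 from 34598500 to 34775473), had the same order of stage means as *Tagln*. It was at 15.7 and 15.4 TPM in ESC, 121 and 121 TPM in MES, 228 and 234 TPM in CP, and 182 and 230 TPM in CM. The rise from ESC to MES was 6.73-fold (2.75 ± 0.09 SE on the log2 scale, adjusted p = 2.27e-08). From MES to CP the change was past the threshold on p but under the threshold on fold (0.78 on the log2 scale, adjusted p = 0.000137), and from CP to CM it was neither (-0.25 on the log2 scale, adjusted p = 0.0547). *Cald1* has a non-muscle form as well as a smooth muscle form, and counts per gene do not separate them.

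*Lmod1*, which encodes leiomodin 1, a nucleator of actin filaments in smooth muscle (ENSMUSG00000048096, chromosome 1 from 135324807 to 135368065), was among the low members but rose at both of the first steps. It was at 0.684 and 0.424 TPM in ESC, 2.60 and 2.32 TPM in MES, 8.49 and 8.93 TPM in CP, and 14.9 and 9.84 TPM in CM. *Lmod1* was called 3.80-fold higher in MES than in ESC (adjusted p = 0.00209), and CP stood 3.16-fold above MES (adjusted p = 0.00246). The level in CM lay above CP in both libraries without a call (0.46 on the log2 scale, adjusted p = 0.264).

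*Smtn*, which encodes smoothelin, a protein of the smooth muscle cytoskeleton (ENSMUSG00000020439, chromosome 11 from 3517523 to 3540612 on the minus strand), changed least. It was at 28.5 and 28.2 TPM in ESC, 43.7 and 42.2 TPM in MES, 55.3 and 51.2 TPM in CP, and 73.7 and 53.2 TPM in CM. It was called in none of the 6 comparisons. CM stood above ESC by 0.74 ± 0.18 (SE) on the log2 scale (adjusted p = 0.00412), under the threshold on fold, and it passed that threshold with either test on log2 TPM and without CM replicate 2. In ESC *Smtn* made up 24.2% and 22.8% of the summed TPM of the 10 genes, second to *Acta2*, and in CP 1.43% and 1.18%.

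The myosin motor had the lowest mean level of the 10 genes at every stage. *Myh11*, which encodes smooth muscle myosin heavy chain (ENSMUSG00000018830, chromosome 16 from 14194535 to 14291372 on the minus strand), was at 0.166 and 0.196 TPM in ESC, 0.496 and 0.356 TPM in MES, 0.698 and 0.398 TPM in CP, and 1.86 and 1.66 TPM in CM. In counts these were 7 and 8, 18 and 13, 25 and 14, and 70 and 56 reads. *Myh11* ranked 13332 of 17593 protein-coding genes in CM, where *Acta2* was 750 and 890 times as high in TPM. The rise from CP to CM was 3.04-fold (1.61 ± 0.37 SE on the log2 scale, adjusted p = 0.0123). That call was lost with DESeq2 (adjusted p = 0.0513), with limma on log2(TPM + 1) and without CP replicate 2 (adjusted p = 0.104). From ESC to CP it rose 2.34-fold (adjusted p = 0.0400), a call lost with DESeq2, with limma on log2(TPM + 1), and without ESC replicate 1, ESC replicate 2 or CP replicate 1. From ESC to CM the rise was 7.13-fold (2.83 on the log2 scale, adjusted p = 0.000208), and that call held in all 19 alternatives. The marker most restricted to smooth muscle was thus present at under 2 TPM in every library, so the group is described here by its genes and not as a cell type.

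*Myl9*, which encodes the regulatory light chain that myosin light chain kinase phosphorylates (ENSMUSG00000067818, chromosome 2 from 156775420 to 156781658), had a higher mean at each successive stage. It was at 9.29 and 8.48 TPM in ESC, 43.6 and 36.9 TPM in MES, 75.8 and 77.1 TPM in CP, and 158 and 181 TPM in CM. No 2 stages overlapped. The difference was 3.92-fold from ESC to MES (1.97 on the log2 scale, adjusted p = 5.49e-06), 1.70-fold from MES to CP (0.76 on the log2 scale, adjusted p = 0.00224, under the threshold on fold) and 2.10-fold from CP to CM (1.07 on the log2 scale, adjusted p = 0.000599).

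*Des*, which encodes desmin, the intermediate filament protein of all muscle types (ENSMUSG00000026208, chromosome 1 from 75360329 to 75368579), was the only member with overlapping levels in ESC and MES. It was at 9.78 and 12.5 TPM in ESC, 10.2 and 11.8 TPM in MES, 52.5 and 63.4 TPM in CP, and 143 and 116 TPM in CM. *Des* rose 4.71-fold from MES to CP (2.24 ± 0.19 SE on the log2 scale, adjusted p = 3.88e-05) and 2.15-fold from CP to CM (1.10 ± 0.17 SE on the log2 scale, adjusted p = 0.00170). The latter fold was close to the threshold, and the call was lost without CP replicate 1 (log2 fold change 0.98) or CM replicate 1 (log2 fold change 0.83).

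**Figure D4:**
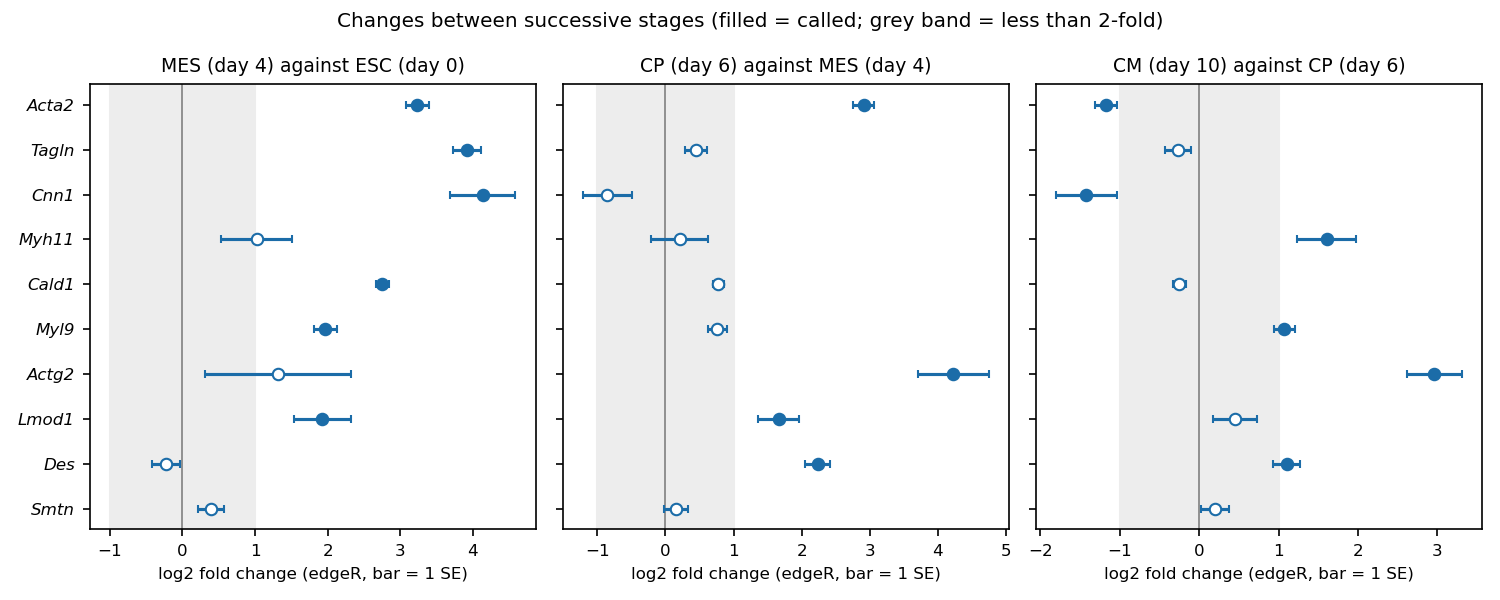
Log2 fold change of each gene from edgeR at the 3 successive steps, with bars of 1 standard error, filled points for called genes and a grey band for changes of less than 2-fold. From CP to CM, *Acta2* and *Cnn1* lie left of the band at -1.17 and -1.42 and *Myh11*, *Myl9*, *Actg2* and *Des* lie right of it at 1.61, 1.07, 2.96 and 1.10.

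The 2 CM libraries differed more than those of other stages. The mean chi-square per gene was 33.2 in CM over 18528 genes, and 3.71 to 6.40 elsewhere over 16811 to 17626 genes. Genes with few counts at a stage were left out of its mean. Since the model assigns a gene the same spread at each stage, tests that involve CM can give p-values that are too small. Of the 10 genes, *Acta2*, *Tagln*, *Cnn1*, *Cald1* and *Myl9* were higher in CM replicate 2, and *Myh11*, *Actg2*, *Lmod1*, *Des* and *Smtn* were higher in CM replicate 1. Markers of other cell types differed between the same libraries. The summed TPM of 12 cardiomyocyte markers was 514 in the first CM library and 1059 in the second, and that of 10 fibroblast markers was 14962 and 8694. The fibroblast sum was led by collagen genes, with *Col1a1* alone at 8155 and 4539 TPM. The fibroblast list did not move as one, since *Tcf21* (20.2 and 24.7 TPM), *Fbln1* (197 and 219 TPM), *Thy1* (3.04 and 5.70 TPM) and *Pdgfra* (80.8 and 81.1 TPM) were higher in the second CM library. The part of these cell types in the results was not tested. Over the 19 alternatives, the fits without either CM library included, 4 to 6 members were called from CP to CM.

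Across the stages, the fibroblast markers summed to 45.4 and 45.7 TPM in ESC, 635 and 654 TPM in MES, and 5411 and 6344 TPM in CP. Of these 10 markers, 7 were called higher from ESC to MES, against 19.4% of all genes. At the step from MES to CP, 7 were called higher and 1 lower, against 10.8% and 4.65%. The cardiomyocyte markers summed to 41.5 and 41.4 TPM in ESC, 129 and 131 TPM in MES, and 842 and 1294 TPM in CP, with *Myh6*, the atrial and adult ventricular myosin of the mouse, at 80.5 and 120 TPM in CP and 66.7 and 199 TPM in CM. The sum of the 8 pericyte markers ranged from 145 TPM in an ESC library to 388 TPM in a CM library. Most of it came from *Mcam* and *Notch3*, at 85.7 and 56.2 TPM in the former library and 134 and 129 TPM in the latter. *Rgs5* went another way, from 46.6 and 58.1 TPM in MES to 12.0 and 26.7 TPM in CM. Of the 7 pericyte markers tested, 5 were called higher from ESC to CM, against 29.8% of all genes, and 2 were not called. From ESC to MES 2 were called higher and 1 lower, against 19.4% and 16.0% of all genes. From MES to CM 4 were called higher and 1 lower, against 19.1% and 10.1%. The remaining marker, *Higd1b*, was at 0 in all libraries but 1 of ESC. Endothelial markers (8 genes) summed to 491 and 519 TPM in CP and 271 and 211 TPM in CM, and 5 of them were called lower from CP to CM (2.65% of all genes were), the step at which *Acta2* fell. Their part in that fall was not tested. Skeletal muscle markers (10 genes) summed to at most 25.2 TPM in any library, reached in CM replicate 1, where *Tnnt3* alone was at 18.0 TPM. *Myf6* and *Myh8* were at 0 in all 8 libraries. Of the 4 skeletal markers tested, 3 were called higher from ESC to MES and 1 lower, against 19.4% and 16.0% of all genes. The fibroblast and cardiomyocyte sums increased along with that of the contractile genes up to CP, and their part in it was not tested.

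Several close relatives of the 10 genes were more abundant than the members themselves. Non-muscle myosin heavy chains *Myh9* and *Myh10* were at 315 and 345 TPM and at 296 and 268 TPM in CM, compared with under 2 TPM for *Myh11*. *Cnn2* was at 484 and 459 TPM and *Cnn3* at 543 and 502 TPM in CP, compared with 24.4 and 25.4 TPM for *Cnn1* there. *Tagln2* was at 167 and 181 TPM in ESC, when *Tagln* was near 20 TPM, and *Tagln* exceeded it in both CP libraries, with 332 and 377 TPM for *Tagln2*. Of 18 such relatives 16 were tested. From ESC to MES 8 were called higher, against 19.4% of all genes. *Cnn2* (6.49-fold), *Myh10* (3.86-fold), *Myh9* (2.41-fold) and *Vim* (2.64-fold), an intermediate filament of mesenchymal cells, had the smallest adjusted p of these, while *Actc1* (7.64-fold) and *Acta1* (7.08-fold) had the largest folds. *Smtnl1* was called lower at that step, against 16.0% of all genes. From MES to CP 1 of the 16 was called higher, *Actc1*, which is no larger a share than the 10.8% of all genes. From CP to CM 1 was called higher, *Myh14*, and 1 lower, *Acta1*, against 8.17% and 2.65% of all genes. *Cnn3* was not called from ESC to MES (0.08 on the log2 scale, adjusted p = 0.455).

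Of 18 genes for the transcriptional control of smooth muscle genes, 17 were tested. The factors that bind the CArG box or act through it moved unequally. *Srf* itself was at 67.2 and 67.1 TPM in ESC, 72.0 and 69.9 TPM in MES, 52.5 and 54.1 TPM in CP, and 44.2 and 57.5 TPM in CM, and was called at none of the 3 steps. The myocardin-related coactivators *Mrtfa* and *Mrtfb* were present from the start, at 18.2 and 19.1 TPM and at 26.1 and 27.5 TPM in ESC, and were called at none of these steps either. *Myocd*, which encodes myocardin, had 1 count over both ESC libraries. It was at 3.95 and 4.99 TPM in MES, 23.6 and 33.2 TPM in CP, and 5.32 and 11.2 TPM in CM. The ratio of counts per total between MES and ESC was 288 (95% counting interval 51.2 to 11413, which covers counting error only). *Myocd* rose 5.69-fold from MES to CP (2.51 ± 0.29 SE on the log2 scale, adjusted p = 0.000224) and fell 3.68-fold from CP to CM (-1.88 ± 0.28 SE on the log2 scale, adjusted p = 0.00153). Its order of stages was that of *Acta2*, with the highest level in CP, then CM, then MES. Many other genes of the lists had this order too, among them *Tagln*, *Cald1*, *Mrtfb*, *Csrp1* and *Tgfb1i1*.

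*Klf4*, a pluripotency factor that also represses smooth muscle genes, went from 197 and 194 TPM in ESC to 9.07 and 11.1 TPM in MES, a fall of 22.5-fold (adjusted p = 2.04e-08). It rose 2.12-fold from CP to CM (adjusted p = 0.000545), to 33.8 and 48.6 TPM. In all, 7 of the 17 were called higher from ESC to MES and 1 lower, against 19.4% and 16.0% of all genes. From MES to CP 2 were called higher, a share close to the 10.8% of all genes. From CP to CM 2 were called higher and 3 lower, against 8.17% and 2.65%. The 4 with the smallest adjusted p among the rises to MES were *Tgfb1i1* (28.5-fold), *Csrp1* (6.61-fold) and *Fhl2* (42.8-fold), which encode LIM domain proteins, and *Gata6* (10.6-fold), a transcription factor of mesoderm and endoderm. From CP to CM, *Csrp2* fell 2.002-fold (-1.001 on the log2 scale), only just past the threshold on fold, and *Fhl2* rose 2.31-fold.

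**Figure D5:**
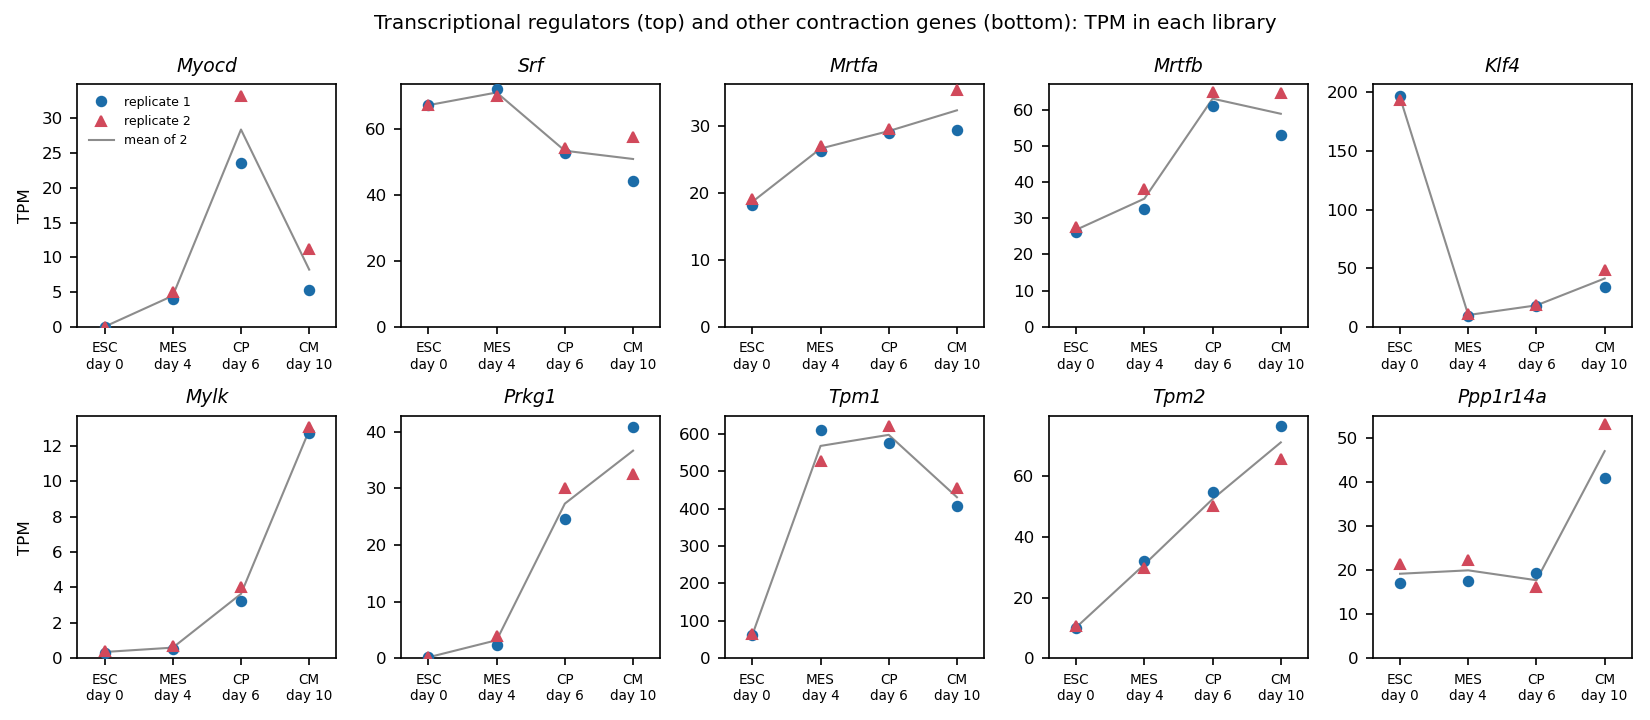
TPM in each library of 5 transcriptional regulators (top) and 5 other contraction genes (bottom) by stage, with circles for replicate 1, triangles for replicate 2 and a line through the mean. *Myocd* peaked in CP at 23.6 and 33.2 TPM, *Klf4* fell from 197 and 194 TPM in ESC, and *Mylk* rose to 12.7 and 13.0 TPM in CM.

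The wider contraction list held 26 genes, all of them tested. From ESC to MES, 11 were called higher and 2 lower, against 19.4% and 16.0% of all genes, the lower being *Synpo2* and *Synm*. From MES to CP, 9 were called higher, against 10.8%, and none lower, against 4.65%. From CP to CM, 2 were called higher and 1 lower, shares close to the 8.17% and 2.65% of all genes. The tropomyosins lie along the actin filament. *Tpm1* rose 7.86-fold (adjusted p = 3.66e-08), *Tpm4* 7.29-fold (adjusted p = 4.70e-08) and *Tpm2* 2.62-fold (adjusted p = 5.77e-05) from ESC to MES, and none of them was called at the next 2 steps. The mean of *Tpm2* was nonetheless higher at each successive stage, at 76.4 and 65.7 TPM in CM. *Mylk*, which encodes myosin light chain kinase, was at 0.319 and 0.396 TPM in ESC, 0.521 and 0.684 TPM in MES, 3.22 and 4.05 TPM in CP, and 12.7 and 13.0 TPM in CM. It was called higher from MES to CP (5.39-fold, adjusted p = 4.65e-05) and from CP to CM (3.37-fold, adjusted p = 0.000224). *Ppp1r14a*, an inhibitor of myosin phosphatase, was called at the last step only of the 3 (2.50-fold, adjusted p = 0.00181). *Rhoa*, *Rock1* and *Rock2*, which encode a GTPase and the kinases it activates to inhibit that phosphatase, and *Ppp1r12a*, its targeting subunit, were called at none of the 3 steps. *Prkg1*, the cGMP-dependent kinase that takes part in relaxation, rose 7.67-fold (adjusted p = 3.09e-05) and its substrate *Mrvi1* rose 12.6-fold (adjusted p = 3.47e-05) from MES to CP. *Ldb3*, a protein of the Z-disc of striated muscle, rose 16.2-fold at that step (adjusted p = 1.49e-05). *Kcnmb1*, the beta subunit of the calcium-activated potassium channel of smooth muscle, was the gene called lower from CP to CM (2.89-fold, adjusted p = 0.0133), and it stayed under 2 TPM in all libraries.

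The likeness of patterns was measured as the root mean square difference of log2 CPM over the 8 libraries, with each gene centred on its own mean. Among the members, *Myl9* and *Lmod1* were the closest pair at 0.41, followed by *Tagln* and *Cald1* at 0.44, and *Cnn1* and *Actg2* were the farthest apart at 3.54. *Acta2* was nearest to *Tagln* (0.96) and *Lmod1* (1.01) and farthest from *Smtn* (2.09). Of the other 20070 genes tested, *Kcne3*, a potassium channel subunit, lay nearest to *Acta2* at 0.20, followed by *Cmah* (0.29), *Ctla2a* (0.34), *S1pr1*, a receptor for sphingosine 1-phosphate (0.35), and *Angpt1*, a ligand of the endothelial receptor TEK (0.38), where the median gene lay at 2.33. All 5 were far less abundant than *Acta2*, with *Kcne3* listed at 0 in both ESC libraries and at 12.2 and 12.4 TPM in CP. Near 0 the measure depends on the prior count of 2 that was added to the reads. The nearest genes to *Smtn* were *Rab18* (0.10), *Dlg3* (0.10), *2610301B20Rik* (0.10), *Prdx4* (0.10) and *Rell1* (0.10), with the median gene at 0.68. These are descriptions over 8 libraries that share their stages.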

How the data were processed

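Ribosomal RNA was depleted and 8 strand-specific, paired-end libraries of 4 stages, with 2 biological replicates each, were sequenced. Per the labels and the study's methods, the authors trimmed reads with Trim Galore 0.6.6, aligned them to GRCm38 with HISAT2 2.2.1 and counted them by strand with featureCounts 2.0.1, and ran their own tests with DESeq2 1.34.0. They deposited raw counts per gene and TPM. Recomputing TPM from counts and lengths gave the deposited values to within 0.0001. Total counts ranged from 18046063 to 19728777 per library. Counts were compared with edgeR 4.0.16 (TMM scaling, filterByExpr grouped by stage, and 1 model of all 8 libraries with stage as the only term), with Benjamini-Hochberg adjustment over 20071 genes. The standard error (SE) was derived from the test, as the absolute log2 change over the square root of F. Stages share their libraries between comparisons. Alternatives used DESeq2 1.42.0, limma 3.58.1 on log2(TPM + 1) and log2(TPM + 0.1), other scalings and filters, and a replicate block. Others used a robust estimate of the spread, only the 2 stages compared, no threshold on the fold change, and fits without each library. The code was tested on simulated data. R 4.3.3 was used. Coordinates are from GENCODE M21 (GRCm38), whose merged exon lengths equal those in the files for all 10 genes, and promoter sequences are from RefSeq (GRCm38.p6). The 10 genes and all other gene lists were chosen with earlier results of these data known. Named genes are the 10 members, the 6 actins, relatives of the members, up to 4 called genes per other list, step and direction by adjusted p, and the 5 genes nearest to *Acta2* and to the member farthest from it. *Srf*, *Mrtfa*, *Mrtfb*, *Tpm2*, *Rhoa*, *Rock1*, *Rock2* and *Ppp1r12a* were added for their known role and *Higd1b*, *Myf6* and *Myh8* for their levels of 0, after their values were seen. A gene of the lists that this rule would name is not reported here.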

Additional observations from a re-analysis of the deposited data

How the results depend on the processing

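Over 19 alternatives, 1107 of 1139 values of single genes kept their direction and side of the thresholds, 18 lost a call, 8 gained one and 6 changed sign. Dropping the threshold on fold, 1 of the 19 alternatives, can only add calls and gave 5 of the 8 gains. All gains from MES to CP, MES to CM and ESC to CP came from it, and so did the highest counts of called members there. The sign changes were all of uncalled values without 1 library. On the log2 scale, *Myh11* from MES to CP was -0.040 without MES replicate 2 and -0.28 without CP replicate 1, and fits without 1 library ranged from -0.28 to 0.57. *Tagln* from MES to CM was -0.016 without MES replicate 2 and -0.068 without CM replicate 2, with a range of -0.068 to 0.42. *Smtn* without CM replicate 1 was -0.17 from CP to CM (range -0.17 to 0.48) and -0.016 from MES to CM (range -0.016 to 0.63). *Actg2* had no value from ESC to MES in a fit of those stages alone, where it did not pass the filter. Counts of called members ranged from 4 to 6 for CP to CM and for MES to CP, 6 to 8 for MES to CM, 8 to 10 for ESC to CP, 9 to 10 for ESC to CM, and stayed at 6 for ESC to MES. By share of counts in place of TPM, which favours long genes by its construction, the 10 genes took 0.0140% (ESC), 0.0884% (MES), 0.278% (CP) and 0.198% (CM) of the library, and *Acta2* took 0.412% of the 6 actins in ESC, 17.6% in CP and 10.6% in CM. With library totals in place of TMM the median of all genes shifted by 0.22 (ESC to CM), 0.15 (ESC to CP) and 0.14 (MES to CM) on the log2 scale, and no member changed direction. Replicate numbers share only a number in the labels, and deviations of same-numbered libraries correlated at 0.011 to 0.075 between stages. With a replicate block, the counts of called members were 6, 4 and 6 at the 3 successive steps, 9 for ESC to CP, 7 for MES to CM and 9 for ESC to CM, as without it. At this depth, members below 1 TPM rest on few reads, such as 15 for *Myh11* and 9 for *Actg2* over both ESC libraries.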
